A study of Caenorhabditis elegans with 22 samples.

Results

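Transcript levels of whole Caenorhabditis elegans were compared between worms kept for 20 h in S-basal salt buffer with 5% (v/v) ethanol and worms of the time zero group, labelled as 0% ethanol for 0 h. The comparison used 3 ethanol libraries and 4 time zero libraries of the 22 in the series. All worms were of the wild-type N2 strain, were synchronised, and had grown on plates with E. coli OP50, the usual bacterial food. The ethanol worms had been washed off that food. For many genes and lists, 3 libraries of worms kept for 20 h in the same buffer with 0% ethanol are set beside them. Where no buffer value is given, a change from time zero may be shared with buffer. A difference from time zero therefore holds 20 h in buffer away from the seeded plates together with the ethanol, and this comparison cannot tell them apart. The ethanol against buffer values at 20 h test what ethanol added. The worms are described as L3 larvae in the protocols but as L4 in the title, while yolk and sperm transcripts were abundant at time zero, so no stage is given to them here. Of 42048 genes in the table, 15310 passed a filter on low counts and form the comparison. Levels are CPM (counts scaled to a common library size) of a library scaled by the trimmed mean of M-values (TMM), listed for replicates 1 to 4 at time zero and 1 to 3 at 20 h.

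C. elegans oxidises part of the ethanol it takes up with alcohol and aldehyde dehydrogenases, and the resulting acetate can enter the glyoxylate and tricarboxylic acid (TCA) cycles. Its intestine is the main site of digestion, fat storage, yolk production and the handling of foreign compounds, in which cytochrome P450 enzymes and flavin monooxygenases oxidise a compound, UDP-glucuronosyltransferases and glutathione S-transferases conjugate it, and ABC transporters export it. Misfolded proteins in the endoplasmic reticulum (ER) raise ER chaperones through the sensors IRE-1, PEK-1 and ATF-6.

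Library totals of the 7 libraries ran from 11640152 to 15302047 counts, and the tested genes held 99.94% of all counts. On the first axes of variation of time zero, buffer and ethanol at 20 h, which held 57.1% and 30.7% of the variance, the 3 groups lay apart with no overlap. Libraries of a group differed beyond counting error (chi-square per degree of freedom from 5.735 to 108.3), and none held identical values. Time zero replicate 1, buffer replicate 1 and ethanol replicate 3 at 20 h had the highest score of their group on the main axis within groups, at 39.5, 61.0 and 23.3. They were picked on the positive side alone. On the negative side, time zero replicate 2 was at -26.8 and buffer replicates 2 and 3 at -32.1 and -28.9. Without the 3 libraries of high positive score, a check chosen after the data were seen, 4080 genes were higher and 3798 lower. The labels call the libraries biological replicates without naming separate cultures for them, so the spread behind each p-value is that between libraries and may be technical.

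Ethanol at 20 h differed from time zero in 8119 of the 15310 tested genes, split evenly between directions. By edgeR's quasi-likelihood F-test with a Benjamini-Hochberg adjusted p under 0.05, 4050 genes were higher (26.5% of those tested) and 4069 were lower (26.6%). Of these, 2115 were over 2-fold higher and 2884 over 2-fold lower, and 296 and 371 passed 16-fold. The median log2 fold change over all tested genes was -0.03. With library sizes alone in place of TMM the split was 5192 higher and 3108 lower, and that median moved to 0.215, so small changes below are relative to the TMM scaling. Against time zero, buffer alone gave 4709 genes higher (30.8%) and 3733 lower (24.4%). Ethanol against buffer at 20 h gave 3833 higher (25.0%) and 4309 lower (28.1%). The 2 comparisons with time zero share its libraries, so their values are given side by side and not as an overlap. In 4380 genes (28.6%) every ethanol library was above every time zero library, and in 4293 (28.0%) every one was below. Each adjusted p below comes from the same test, and log2 fold changes follow gene names in brackets. Counts of list members below are to be read against the 26.5% higher and 26.6% lower of all tested genes. In whole worms, fewer cells of a type and less RNA per cell cannot be told apart, which touches every tissue group below.

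**Figure D1:**
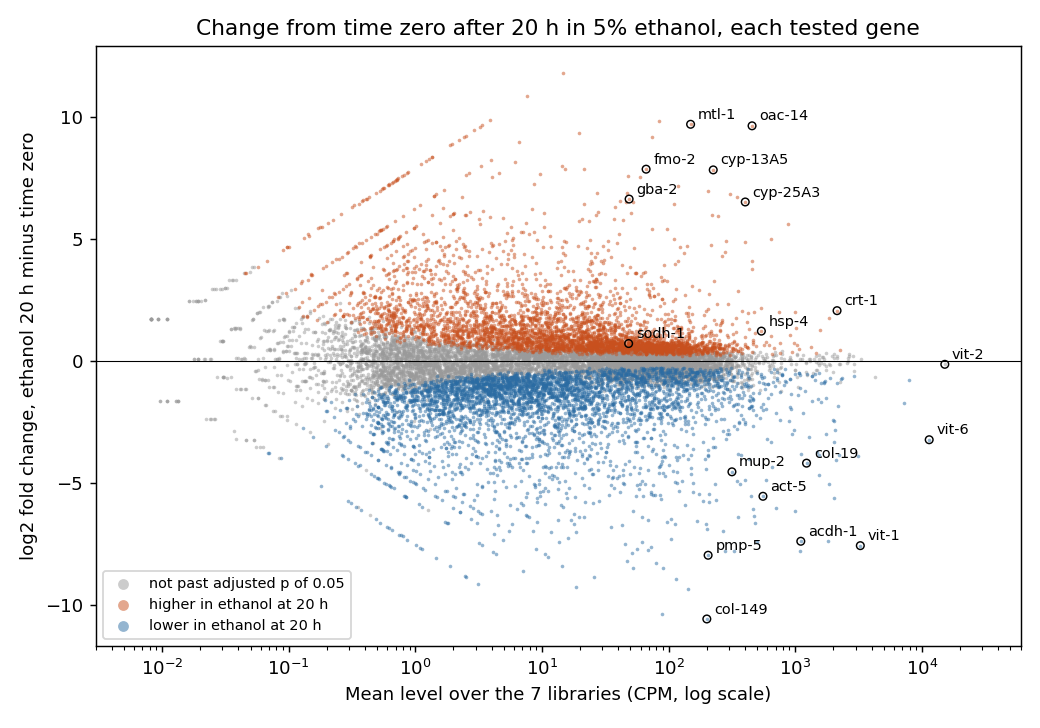
Log2 fold change of ethanol at 20 h minus time zero (y axis) against the mean level over the 7 libraries in CPM (x axis, log scale), 1 point a gene. Orange points were higher and blue points lower at an adjusted p under 0.05, and grey points did not pass. Named genes are circled: mtl-1, oac-14, fmo-2 and cyp-13A5 sit near the top, and col-149, pmp-5, vit-1 and acdh-1 near the bottom.

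A group of genes close to silence at time zero rose to high levels in ethanol, and several are enzymes that act on foreign compounds. The acyltransferase homolog oac-14 was at 0.931, 1.68, 0.900 and 1.62 CPM at time zero and at 757, 1559 and 869.7 CPM after ethanol. In buffer at 20 h it stayed at 3.82, 1.63 and 1.87 CPM. All ethanol libraries lay far above all others (log2 fold change 9.65 ± 0.37 (SE), adjusted p = 3.65e-14). The P450 gene cyp-13A5 went from 2.61, 2.15, 2.07 and 2.24 CPM to 545, 459 and 562 CPM, against 8.55, 13.3 and 13.5 CPM in buffer. Its change from time zero was 7.84 ± 0.19 (SE), adjusted p = 1.62e-16, and ethanol exceeded buffer by 5.47 ± 0.19 (SE), adjusted p = 2.16e-14. The flavin monooxygenase gene fmo-2 was at 0.652, 0.537, 0.810 and 0.619 CPM and then at 142, 189 and 132 CPM, a rise of 7.87 ± 0.43 (SE), adjusted p = 8.85e-12. It also rose in buffer (8.86, 40.7 and 28.7 CPM), to a level below every ethanol library. The UDP-glucuronosyltransferase ugt-37 (7.57) and the C-type lectin clec-210 (7.59) rose in ethanol and fell in buffer, where clec-210 was at 0, 0 and 0.0811 CPM. The metallothionein gene mtl-1, a metal-binding protein, behaved differently. It rose from 0.465, 0.336, 0.360 and 0.464 CPM to 264, 471 and 307 CPM in ethanol, and to 125, 271 and 296 CPM in buffer. Those 20 h groups overlapped, and ethanol against buffer did not pass (0.59 ± 0.27 (SE), adjusted p = 0.0736), though it did without buffer replicate 3 (adjusted p = 0.0303) or ethanol replicate 1 (adjusted p = 0.0339). Genes with no role given here also led the list: F10C2.7 (9.87), F26A1.8 (9.20), Y47H9C.1 (7.88), Y47H10A.5 (7.19), T22B7.3 (6.99) and C50F7.5 (6.91). In each of these 6, all ethanol libraries were above all time zero libraries, and ethanol also exceeded buffer, by 1.93 to 5.42.

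Another 60 genes called higher had no count in any time zero library. The sodium/proton exchanger gene nhx-6 reached 34.4 ± 6.19 CPM (SD, n = 3) in ethanol, at least 574-fold above a floor of 3 counts over the time zero group, and stood at 0.0490 ± 0.0425 CPM in buffer. The P450 gene cyp-33B1 reached 9.12 ± 4.13 CPM, at least 158-fold higher, with 0.123 ± 0.0770 CPM in buffer. In the other direction 25 called genes had no count in ethanol, among them nspe-1 (at least 83.2-fold lower) and cyp-35D1 (at least 65.7-fold lower). Such floors cover counting error alone. Fewer than 10 counts at time zero lay behind 329 of the genes called higher, and fewer than 10 in ethanol behind 316 of those called lower.

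The oxidising enzymes for foreign compounds were more often higher than lower, while the conjugating enzymes went both ways. Of 65 tested P450 genes 34 were higher and 13 lower (median 0.68, against -0.03 for all genes), and their summed level was 678 to 798 CPM at time zero and 3930.1 to 5145 CPM in ethanol. In buffer alone 21 were higher and 19 lower than at time zero (median -0.02), and ethanol against buffer gave 38 higher and 12 lower (median 0.69). The most abundant of those named, cyp-25A3, was at 9.31, 10.7, 10.2 and 9.90 CPM at time zero and at 853, 1159.8 and 766 CPM in ethanol. It stood at 26.9, 25.2 and 21.1 CPM in buffer. No ethanol library came near the others (change 6.53 ± 0.19 (SE), adjusted p = 5.24e-16). In contrast cyp-32B1 rose in both 20 h groups, from 0.931, 0.470, 0.900 and 1.01 CPM to 29.1, 58.3 and 46.4 CPM in ethanol and 45.7, 74.3 and 101 CPM in buffer, which overlap. Reads of cyp-13A and other clustered P450 and UDP-glucuronosyltransferase genes may be shared between near-identical members, so single members are uncertain.

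Flavin monooxygenases were higher in 4 of 5 cases (median 4.68). The gene fmo-5 rose from 10.3, 8.19, 11 and 6.96 CPM to 434, 630.1 and 614 CPM with 13, 9.68 and 8.68 CPM in buffer, a change of 5.94 ± 0.21 (SE), adjusted p = 1.38e-14. The member fmo-1 rose as well (4.68), fmo-4 rose in ethanol (1.67) and in buffer (2.32), and fmo-3 fell (-3.92). Among 62 UDP-glucuronosyltransferases 32 were higher and 24 lower (median 0.45). In buffer alone 10 were higher and 38 lower than at time zero (median -1.41), and ethanol against buffer gave 40 higher and 9 lower (median 1.29). Both ugt-16 and ugt-33 show the split: ugt-16 was at 11.1, 17.4, 14.9 and 16.1 CPM at time zero, 271, 282 and 224 CPM in ethanol and 4.58, 0.636 and 0.811 CPM in buffer, and ugt-33 rose by 6.89 in ethanol and did not pass in buffer (0.57, adjusted p = 0.319). Glutathione S-transferases had 13 higher and 21 lower of 45 (28.9% and 46.7%, median -0.26), against 10 and 20 in buffer (median -0.64). The higher share in ethanol was near the 26.5% of all tested genes, and ethanol against buffer gave 15 higher and 15 lower (median -0.08). In ethanol gst-4, a target of the oxidative stress factor SKN-1, fell by 3.86 on the log2 scale and in buffer fell by 4.08, while gst-14 rose (4.83) and gst-10 fell by 5.36. ABC transporters had 12 higher and 17 lower of 49 (24.5% and 34.7%, median -0.17, or 0.07 with library sizes alone). In buffer 8 of them were higher and 27 lower (median -0.58), and ethanol against buffer gave 26 higher and 7 lower (median 0.80). The drug exporter gene pgp-1 rose from 6.42, 3.02, 5.04 and 4.26 CPM to 88.1, 128 and 137 CPM, with 9.09, 2.47 and 1.78 CPM in buffer (change 4.66 ± 0.42 (SE), adjusted p = 1.45e-08). The largest fall in the family was pmp-5, a peroxisomal transporter homolog, from 324, 394, 339 and 373 CPM to 1.50, 1.92 and 0.921 CPM (-7.96 ± 0.23 (SE), adjusted p = 7.91e-16), and buffer left it at 62.9, 50.0 and 55.7 CPM.

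**Figure D2:**
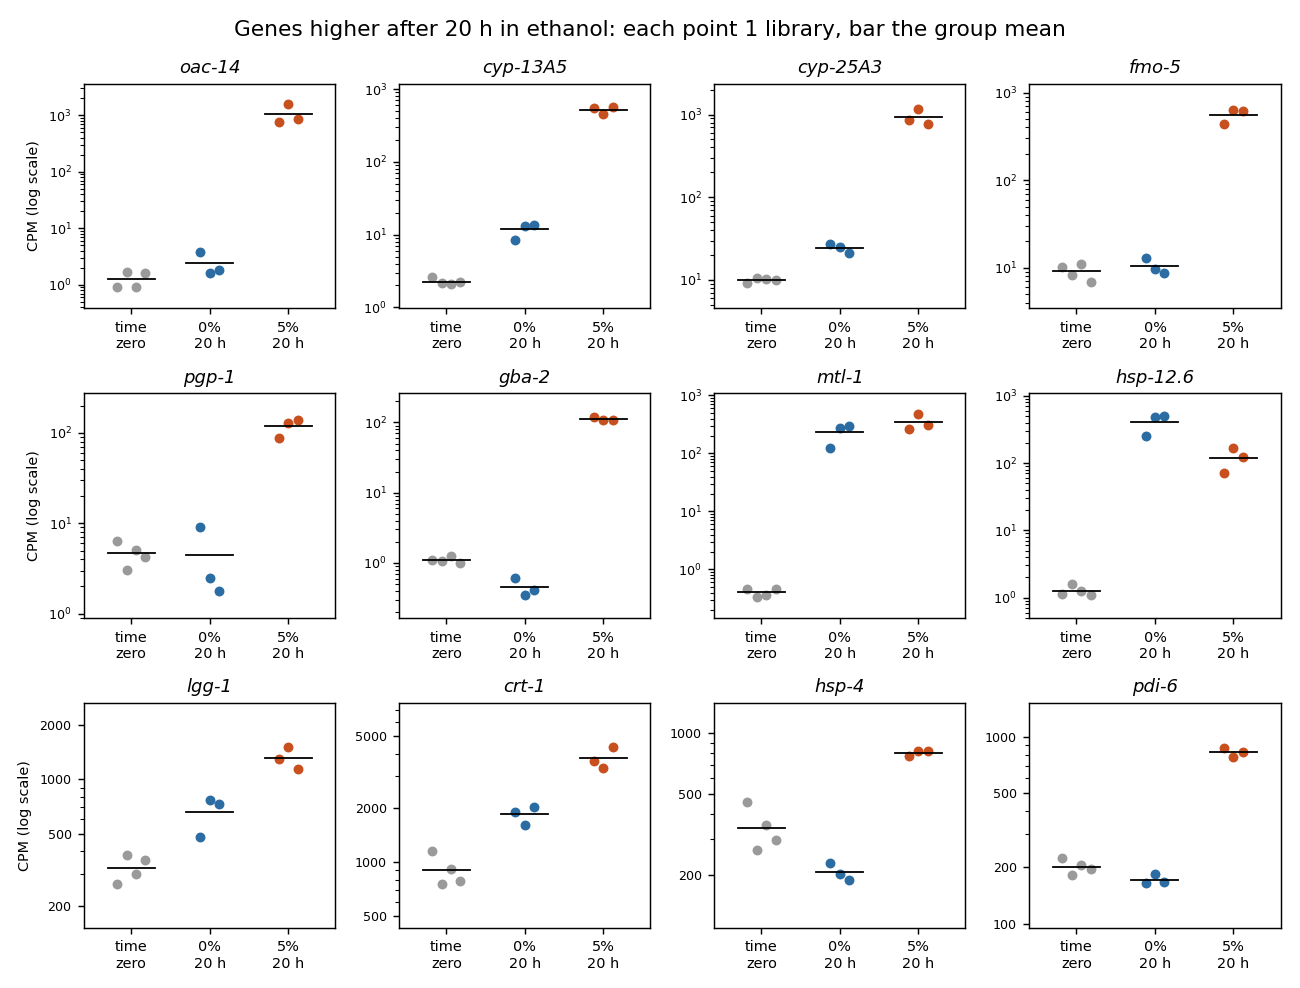
Levels in CPM (log scale) of 12 genes at time zero (4 libraries, grey), in 0% buffer at 20 h (3, blue) and in 5% ethanol at 20 h (3, orange), with 1 point a library and a bar at the group mean. For oac-14, cyp-13A5, fmo-5, pgp-1 and gba-2 the ethanol points stand far above both other groups, whereas mtl-1 is high in both 20 h groups and hsp-12.6 is highest in buffer.

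Most ER stress genes were higher in ethanol, and no tested member was called lower. Of 23 ER stress genes 15 were higher and 0 lower (median 0.74), and their summed level was 5179 to 8507 CPM at time zero and 12882 to 15466 CPM in ethanol. In buffer alone 4 were higher and 5 lower than at time zero (median -0.19), and ethanol against buffer gave 11 higher and 0 lower (median 0.61). Calreticulin, encoded by crt-1, was at 1148, 756, 912 and 790.1 CPM at time zero and at 3667, 3318 and 4368 CPM in ethanol (2.07 ± 0.19 (SE), adjusted p = 1.2e-08), with 1893, 1614 and 2016 CPM in buffer. The chaperone gene enpl-1 stood at 619.6, 306, 442 and 374 CPM and then at 1622, 1584 and 2061 CPM (2.01 ± 0.26 (SE), adjusted p = 1.87e-06), against 633, 486 and 504 CPM in buffer. The disulfide isomerase gene pdi-6 changed from 225, 181, 206 and 197 CPM to 866, 776 and 827 CPM (2.03 ± 0.12 (SE), adjusted p = 2.57e-11), and buffer gave 165, 184 and 168 CPM. In all 3 genes every ethanol library was above every library of both other groups. The BiP chaperone gene hsp-4 rose by 1.23 in ethanol and fell by 0.73 in buffer, so the groups at 20 h differed by 1.96. The transcription factor gene xbp-1, whose RNA is spliced by IRE-1, rose by 1.54 in ethanol and did not pass in buffer (-0.07, adjusted p = 0.719). Of the sensors, atf-6 (1.35) and pek-1 (0.86) rose, and ire-1 did not pass (-0.18). The choline kinase gene ckb-2 had the largest change of the list, 3.35, and fell in buffer by 0.82.

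Cytosolic heat shock genes were higher in 8 of 15 cases and lower in 1 (median 0.40), but this count depended on single libraries and on the fit. It was 3 with only the compared groups in the fit and 4 with limma-voom or with no count filter. It was 3 without ethanol replicate 2, 4 without time zero replicate 3 and 5 without time zero replicate 4, and the lower count was 0 without time zero replicate 1 or 3 or ethanol replicate 1 or 3. The small heat shock gene hsp-16.2 was at 2.98, 3.36, 2.07 and 2.17 CPM at time zero and at 2.94, 44.1 and 2.36 CPM in ethanol, so that replicate 2 alone was high. Inducible hsp-70 showed the same, with 9.68, 7.92, 9.18 and 9.05 CPM and then 5.75, 112 and 5.29 CPM. Both passed the test (2.61, adjusted p = 0.0128, and 2.19, adjusted p = 0.0285), and without ethanol replicate 2 their changes were -0.01 (adjusted p = 0.998) and -0.70 (adjusted p = 0.391). The same held for hsp-16.41, at 2.79 with and -0.40 without that library (adjusted p = 0.699). Without time zero replicate 2, 3 or 4 hsp-70 had an adjusted p of 0.0576, 0.0543 and 0.0537. In buffer, replicates 2 and 3 were high and replicate 1 was low for hsp-16.2 (1.30, 28.6 and 15.3 CPM) and hsp-70 (3.51, 77.3 and 56.3 CPM). The small heat shock genes hsp-12.6 and hsp-12.3 rose, with 3.36 for hsp-12.3. For hsp-12.6 the levels were 1.12, 1.61, 1.26 and 1.08 CPM and then 71.4, 168 and 121 CPM (6.54 ± 0.37 (SE), adjusted p = 1.17e-11), and it was higher still in buffer, at 253, 479 and 497 CPM. Mitochondrial stress genes moved little: 1 of 10 was higher and 2 were lower (median -0.12, or 0.15 with library sizes alone). The mitochondrial chaperone gene hsp-6 did not pass (-0.24, adjusted p = 0.604), hsp-60 fell by 1.50 and the ABC transporter gene haf-1 rose by 1.33. The count of lower genes was 1 without time zero replicate 1 or ethanol replicate 1 or 2.

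Antioxidant genes had 5 higher and 2 lower of 19 (median 0.14), and the higher share, 26.3%, was near the 26.5% of all tested genes. The higher count fell to 2 without ethanol replicate 2 and to 3 without time zero replicate 1 or 3 or ethanol replicate 1 or 3. The extracellular superoxide dismutase gene sod-4 rose (1.91 ± 0.17 (SE), adjusted p = 1.22e-08). The methionine sulfoxide reductase gene msra-1 was at 204, 293, 236 and 273 CPM at time zero and at 12.3, 15.3 and 8.69 CPM in ethanol (-4.38 ± 0.31 (SE), adjusted p = 3.08e-10), and at 47.1, 20.6 and 26.2 CPM in buffer. The gene gcs-1, which starts glutathione synthesis, did not pass (-0.47, adjusted p = 0.0868), nor did the mitochondrial superoxide dismutase gene sod-3 (-0.03, adjusted p = 0.899). Of 7 metal response genes 4 were higher and 1 was lower (median 1.49), and in buffer 1 was higher and 6 lower. Beside mtl-1, the metallothionein gene mtl-2 rose by 2.53 in ethanol and fell by 1.41 in buffer. The cadmium-responsive genes cdr-4 (1.93 in ethanol, -1.60 in buffer) and cdr-6 (1.49 and -0.71) did likewise, and cdr-7 fell in both.

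Genes of the hypoxia factor HIF-1 pathway had 0 higher and 6 lower of 11 (median -1.19), while in buffer 6 were higher and 2 lower. The sulfide oxidation gene sqrd-1 was at 18.9, 19.5, 18.7 and 17.8 CPM at time zero, 2.74, 2.22 and 2.36 CPM in ethanol and 19.9, 35 and 31.8 CPM in buffer, lowest in ethanol with no overlap (-2.93 ± 0.18 (SE), adjusted p = 4.83e-11). The gene hif-1 itself fell by 1.19. The HIF-1 target phy-2, a collagen prolyl hydroxylase, stood at 35.4, 47.5, 37.1 and 43 CPM at time zero and at 21.5, 94.1 and 19.6 CPM in ethanol, where replicate 2 was again high. It reached 349, 752 and 701 CPM in buffer, above all ethanol libraries (-3.74 ± 0.46 (SE), adjusted p = 9.7e-07). Neither phy-2 (0.14) nor egl-9, the prolyl hydroxylase that marks HIF-1 for breakdown (0.12), passed against time zero. Without ethanol replicate 2 both were lower than at time zero (-0.99, adjusted p = 0.00457, and -0.83, adjusted p = 0.0252), and 1 member was called higher without ethanol replicate 3.

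Most alcohol and aldehyde dehydrogenase genes and most central carbon genes were lower in ethanol than at time zero, but sodh-1 was called higher. The alcohol dehydrogenase gene sodh-1, the main enzyme of ethanol oxidation in this animal, was at 41.2, 34.6, 35 and 40.5 CPM at time zero and at 47.8, 75.2 and 64.1 CPM in ethanol. It reached 1994, 3280.4 and 3162 CPM in buffer without ethanol. The ethanol libraries lay just above time zero (0.72 ± 0.17 (SE), adjusted p = 0.00145) and far below buffer (-5.50 ± 0.22 (SE), adjusted p = 1.61e-13). Of 14 alcohol and aldehyde dehydrogenase genes 3 were higher and 9 lower (median -0.68). The mitochondrial aldehyde dehydrogenase gene alh-1 had 411, 348, 347 and 355 CPM at time zero and 303, 294 and 317 CPM in ethanol, with all ethanol libraries lower but the test not passed (-0.26 ± 0.14 (SE), adjusted p = 0.138). It was at 525, 759 and 861 CPM in buffer. The fatty aldehyde dehydrogenase gene alh-4 rose (1.16), and alh-12 (-3.66), alh-9 (-3.20), the proline catabolism gene alh-6 (-2.35) and alh-8 (-1.38) fell.

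Of 25 glyoxylate and TCA cycle genes 0 were higher and 19 lower (median -1.22), with a summed level of 6482 to 9885 CPM at time zero and 3219 to 4142 CPM in ethanol. In buffer alone 2 were higher and 8 lower than at time zero (median -0.34), and ethanol against buffer gave 2 higher and 14 lower (median -0.64). The malate dehydrogenase gene mdh-2 went from 774, 426, 562 and 469 CPM to 92.3, 114 and 159 CPM (-2.20 ± 0.32 (SE), adjusted p = 9.86e-06), and buffer gave 249, 130.4 and 124 CPM. Here both 20 h groups were low and overlapped, and ethanol against buffer did not pass (-0.46, adjusted p = 0.24). The succinyl-CoA synthetase genes suca-1 (-2.24) and sucl-1 (-1.88) and the isocitrate dehydrogenase gene idh-1 (-1.96) fell. The glyoxylate cycle gene icl-1 had 291, 213, 218 and 196 CPM at time zero and 178, 213 and 292 CPM in ethanol, which overlap (-0.01, adjusted p = 0.972). In buffer icl-1 rose to 820.3, 648 and 575 CPM (1.57, adjusted p = 2.81e-06).

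Glycolysis and gluconeogenesis genes had 0 higher and 19 lower of 21 (median -0.89), against 3 and 7 in buffer (median -0.36). The gene pck-1, which starts gluconeogenesis, was at 208, 164, 158 and 149 CPM at time zero and at 15.2, 109 and 29.5 CPM in ethanol (-1.73 ± 0.41 (SE), adjusted p = 0.00135), and rose to 783, 669.6 and 675 CPM in buffer. Ethanol replicate 2 was the highest ethanol library for pck-1, as for the heat shock genes. The pyruvate kinase gene pyk-1 (-1.67) and the phosphofructokinase gene pfk-1.1 (-1.67) fell, and so did fbp-1 (-1.45), which acts in the opposite direction of the pathway. Of 27 respiratory chain and ATP synthase genes 1 was higher and 17 were lower (median -0.65, buffer -0.33), and none was higher without time zero replicate 1 or ethanol replicate 1 or 2. The ATP synthase gene atp-2 fell from 3505, 1849.6, 2329 and 1995 CPM to 712, 831 and 1011 CPM (-1.51 ± 0.27 (SE), adjusted p = 9e-05), with 1997, 1330.4 and 1476 CPM in buffer. The cytochrome bc complex gene ucr-2.2 (-2.30) and the NADH dehydrogenase gene gas-1 (-1.51) fell as well.

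Lipid genes split by member. Of 22 fatty acid synthesis and desaturation genes 3 were higher and 14 lower (median -0.91), and the 3 higher ones were desaturases. Buffer gave the same counts, 3 higher and 14 lower (median -1.13), but not for all the same members. Ethanol against buffer gave 9 higher and 5 lower (median 0.26). The palmitoyl-CoA desaturase gene fat-5 was at 21.2, 16.5, 21.9 and 15.9 CPM at time zero, 148, 109 and 153 CPM in ethanol and 0.458, 0.212 and 0.162 CPM in buffer. It thus rose in ethanol (2.86 ± 0.22 (SE), adjusted p = 1.03e-09) and fell in buffer by 6.04 on the log2 scale. The gene fat-2, whose enzyme makes linoleic acid, rose from 800.2, 1005, 891 and 969 CPM to 3244, 3149.8 and 2861 CPM (1.75 ± 0.17 (SE), adjusted p = 3.51e-08), above 846, 1555 and 1646 CPM in buffer. The gene fat-3, which acts later on the path to polyunsaturated fatty acids, rose by 1.15 in ethanol and by 2.41 in buffer. The stearoyl-CoA desaturase gene fat-7 fell from 488, 652, 591 and 607 CPM to 23.1, 73.9 and 27.5 CPM (-3.82 ± 0.38 (SE), adjusted p = 5.76e-08) and to 19.6, 48.1 and 45.8 CPM in buffer. The elongase genes elo-2 (-3.53) and elo-6 (-2.67) fell too, and were lower still in buffer (-4.22 and -5.13).

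Fatty acid oxidation genes had 19 higher and 21 lower of 55 (median -0.12, or 0.12 with library sizes alone). Buffer gave 18 higher and 24 lower (median -0.25), and ethanol against buffer gave 26 higher and 14 lower (median 0.39). The acyl-CoA dehydrogenase gene acdh-1 was at 1719, 2072, 1923 and 1989 CPM at time zero and at 5.81, 22.5 and 6.39 CPM in ethanol (-7.39 ± 0.43 (SE), adjusted p = 1.69e-11), and at 419.8, 411 and 414 CPM in buffer. The order was time zero, buffer, ethanol, with no overlap. The acyl-CoA synthetase gene acs-2, a fasting-responsive gene, fell from 35.3, 31.6, 26.9 and 28.4 CPM to 3.59, 11 and 4.78 CPM in ethanol and rose to 65.3, 257 and 197 CPM in buffer, so that ethanol against buffer was -4.76 ± 0.44 (SE), adjusted p = 2.24e-08. Another synthetase gene, acs-3, rose (3.60). Of 12 lipases 3 were higher and 4 lower, whereas in buffer 8 were higher and 0 lower. The lysosomal lipase gene lipl-1 went from 4.65, 7.72, 6.75 and 8.20 CPM to 0.131, 0 and 0.115 CPM in ethanol (-6.15 ± 0.40 (SE), adjusted p = 6.7e-11) and was at 7.64, 8.48 and 9.82 CPM in buffer. Genes lipl-2 and lipl-5 fell in ethanol (-3.47 and -2.90) and rose in buffer (3.11 and 0.98). The fasting-induced lipase genes fil-1 and fil-2 did not pass against time zero (0.61, adjusted p = 0.0897, and 0.39, adjusted p = 0.617) and rose in buffer by 4.31 and 2.77. Without ethanol replicate 2, fil-1 passed (0.83, adjusted p = 0.0282). The osmolyte enzyme gene gpdh-2 rose from 137, 139, 140.2 and 145 CPM to 404, 467 and 388 CPM (1.58 ± 0.10 (SE), adjusted p = 3.97e-11), while its paralog gpdh-1 fell by 5.14 and the aquaporin gene aqp-8 fell by 5.22. Against buffer at 20 h gpdh-1 did not pass, and without buffer replicate 1 it was higher in ethanol (4.95, adjusted p = 0.00214). Within the glycerol and trehalose list 2 genes were higher and 7 lower of 15 (median -0.24, or 0.02 with library sizes alone), and 1 was higher without time zero replicate 2 or 4 or ethanol replicate 3.

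Autophagy genes were higher in 19 of 29 cases and lower in 0 (median 0.75), and buffer gave nearly the same count, 19 higher and 1 lower (median 0.62). Between the 20 h groups 11 were higher in ethanol and 2 lower (median 0.19). The ATG8 homolog lgg-1, which coats the autophagosome, was at 264, 381, 298 and 359 CPM at time zero, 1296, 1506 and 1145 CPM in ethanol and 480.3, 768 and 730.1 CPM in buffer. It rose to its highest level in ethanol (2.02 ± 0.19 (SE), adjusted p = 1.45e-08, ethanol against buffer 1.00 ± 0.20 (SE), adjusted p = 0.00026). The cargo adaptor gene sqst-1 rose alike in both (2.27 and 2.55). For epg-2, another adaptor, buffer exceeded ethanol (5.11 against 1.71). The glucosylceramidase homolog gba-2 stood out beside these: 1.12, 1.07, 1.26 and 1.01 CPM at time zero, 121, 107 and 109 CPM in ethanol and 0.611, 0.353 and 0.406 CPM in buffer (6.65 ± 0.18 (SE), adjusted p = 4.49e-16).

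Yolk transcripts, made in the adult intestine and among the most abundant at time zero, fell except for vit-2. Their sum was 47063 to 72246 CPM at time zero and 11201 to 25917 CPM in ethanol. It was 43798 to 83799 CPM in buffer, where most of it was vit-2. Of the 6 genes, 0 were higher and 5 lower in ethanol (median -3.64), and 1 was higher and 4 lower in buffer (median -3.30). Between the 20 h groups 1 was higher in ethanol and 4 were lower (median -1.59). The gene vit-1 was at 7267, 4623, 5933 and 4920.3 CPM at time zero, 21.6, 35.7 and 32.5 CPM in ethanol (-7.57 ± 0.44 (SE), adjusted p = 1.85e-11) and 64.5, 97.3 and 115 CPM in buffer. The gene vit-6 went from 22999.9, 15235, 19479.7 and 16219.9 CPM to 668, 3541 and 1722 CPM (-3.22 ± 0.47 (SE), adjusted p = 1.03e-05), with 4268, 7946 and 9019.8 CPM in buffer. For vit-2 the values were 19649, 12949, 16432 and 13937 CPM and then 8748, 17565 and 16811 CPM, which overlap (-0.13, adjusted p = 0.746). In buffer vit-2 was at 28963, 44012 and 54649 CPM, above all ethanol libraries (ethanol minus buffer -1.57 ± 0.35 (SE), adjusted p = 0.000714). Counts of vit-3, vit-4 and vit-5 may share reads, since these genes are nearly identical; their changes were -4.06, -5.61 and -1.74, and all passed the test.

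Intestine markers went both ways by gene. Of 6 tested, 2 were higher and 4 lower, and their summed level was 1844 to 2315 CPM at time zero, 166 to 216 CPM in ethanol and 294 to 660.4 CPM in buffer. The brush border actin gene act-5 was at 1159, 918, 812 and 941 CPM at time zero and at 15.6, 22.4 and 23.5 CPM in ethanol (-5.54 ± 0.41 (SE), adjusted p = 8.79e-10), with 158, 40.3 and 52.1 CPM in buffer. The gut intermediate filament gene ifb-2 fell by 4.07, the peptide transporter gene pept-1 fell by 3.90 and the proton pump gene vha-6 fell by 3.00. In contrast the esterase gene ges-1 rose (1.09) and the transcription factor gene elt-2 was higher (0.86, adjusted p = 0.0307). The elt-2 call was lost in turn without each of time zero replicates 3 and 4 (adjusted p = 0.0599 and 0.0795) and each ethanol library (0.051, 0.054 and 0.100). The part of these markers in the falls of yolk, lysozyme and protease genes was not tested.

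Secreted antibacterial and digestive proteins fell more often than they rose. Lysozymes and saposins had 10 higher and 16 lower of 30 (median -1.06), while in buffer 13 were higher and 9 lower. The invertebrate-type lysozyme gene ilys-5 was at 542, 447, 477 and 469 CPM at time zero and at 1.18, 3.84 and 1.67 CPM in ethanol (-7.78 ± 0.32 (SE), adjusted p = 1.19e-13), and at 17.5, 18.5 and 25.3 CPM in buffer. The lysozyme gene lys-3 rose (4.21) and the saposin-like gene spp-23 fell by 6.54. C-type lectins had 21 higher and 68 lower of 133 (median -0.95), with clec-76 (6.34) among the rises and clec-170 (-7.02) and clec-50 (-5.47) among the falls. Cathepsins and aspartic proteases had 3 higher and 11 lower of 21 (median -0.72). The cathepsin B homolog cpr-6 fell from 658, 607, 643 and 591 CPM to 33.1, 52.9 and 43.6 CPM (-3.86 ± 0.17 (SE), adjusted p = 2.14e-13), and in buffer it was at 420.3, 539.7 and 599.8 CPM, with 1 of the 3 within the time zero range, the others below it, and all far above ethanol. The aspartic protease gene asp-10 was at 95.1, 127, 105 and 106 CPM, 513, 729.7 and 397 CPM in ethanol and 13.1, 15 and 15 CPM in buffer, up in one and down in the other. Epidermal antimicrobial peptides had 5 higher and 9 lower of 17, split by family: the caenacin genes cnc-2 (7.88), cnc-4 (5.78) and cnc-3 (4.97) rose, and the neuropeptide-like genes nlp-24 (-5.54), nlp-33 (-5.08), nlp-26 (-5.07) and nlp-29 (-2.59) fell.

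Genes of the cuticle, the collagen exoskeleton secreted by the epidermis, were mostly lower in ethanol and held several of the largest falls among abundant genes. Of 144 tested collagens 6 were higher and 116 lower (median -3.45), and the summed level was 52255 to 65017 CPM at time zero and 4388 to 7790.2 CPM in ethanol. In buffer alone 29 were higher and 87 lower than at time zero (median -1.78), and ethanol against buffer gave 13 higher and 81 lower (median -1.51). The collagen gene col-149 was at 419, 313, 376 and 293 CPM at time zero and at 0.0653, 0.384 and 0.23 CPM in ethanol (-10.58 ± 0.36 (SE), adjusted p = 7.2e-15), and buffer left it at 0.382, 0.212 and 0.406 CPM. The abundant col-124 went from 5706, 4502, 5807 and 4824 CPM to 220.3, 531 and 287 CPM (-3.91 ± 0.26 (SE), adjusted p = 8.9e-11), with 1128, 1583 and 1696 CPM in buffer. The adult collagen gene col-19 fell from 2401, 1743, 2219 and 1888 CPM to 77.6, 175 and 87.6 CPM (-4.19 ± 0.25 (SE), adjusted p = 2.67e-11), and in buffer to 883, 1078 and 1237 CPM. In each of the 3 genes no ethanol library overlapped time zero, and in col-124 and col-19 ethanol was below buffer as well. Of 5 epidermis markers 0 were higher and 3 lower, and their sum was 1812 to 2511 CPM at time zero and 151 to 247 CPM in ethanol, mostly col-19. The epidermal factors elt-3 (-0.18, adjusted p = 0.242) and lin-26 (0.02, adjusted p = 0.967) did not pass. The part of epidermal content in the collagen falls was not tested.

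Where both groups held 10 counts or more, the mean was 5 CPM or more and the libraries did not overlap, the 12 largest falls of called genes also included Y16B4A.2 (-9.34), T05E12.6 (-8.96), F23D12.11 (-8.50) and F42A10.7 (-8.30), for which no role is given here, and the folate transporter gene folt-2. The gene folt-2 was at 523, 599, 563 and 593 CPM at time zero, 1.83, 2.53 and 3.22 CPM in ethanol and 41.4, 4.81 and 7.38 CPM in buffer (-7.81 ± 0.63 (SE), adjusted p = 2.75e-09). The others were F11E6.3 (-7.77), the prolyl carboxypeptidase homolog pcp-2 (-7.87), col-62 (-8.20), col-94 (-8.47), pmp-5 and ilys-5. All 12 were called lower in buffer too, from a change of -1.90 for pcp-2 to -10.01 for col-149 among those with counts there, and col-62 was at 0, 0 and 0 CPM in buffer.

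Genes of the molting cycle and the apical matrix were opposite in the 20 h groups. Of 25 tested, 0 were higher and 17 lower in ethanol (median -1.23), while buffer gave 17 higher and 3 lower (median 3.22). Without time zero replicate 1 or ethanol replicate 2, 1 member was higher in ethanol. At 9.59, 5.04, 4.95 and 5.57 CPM at time zero, the matrix gene sym-1 fell to 1.24, 0.690 and 1.32 CPM in ethanol (-2.49 ± 0.38 (SE), adjusted p = 1.21e-05) and rose to 92.5, 47 and 38.6 CPM in buffer. The cuticlins had 7 higher and 7 lower of 29 in ethanol, and 26 higher and 1 lower in buffer. Both ethanol shares were 24.1%, near the 26.5% and 26.6% of all tested genes. The cuticlin gene cut-3 was at 0.0931, 0.269, 0.180 and 0.464 CPM at time zero, 1.11, 2.68 and 1.61 CPM in ethanol and 281, 92 and 180.1 CPM in buffer. Hedgehog-related genes had 12 higher and 26 lower of 61 (median -0.65, buffer 1.49), led by the falls of grd-3 (-5.10) and grd-5 (-5.03). Astacin proteases had 4 higher and 17 lower of 32 (median -1.16, buffer 0.29). The embryonic hatching enzyme gene hch-1 had no count at time zero, 0, 0.23 and 0.173 CPM in ethanol and 107, 112 and 83.7 CPM in buffer. Of 5 embryo markers 4 were tested, and their summed level was 1.55 to 4.05 CPM at time zero, 2.76 to 3.59 CPM in ethanol and 89.5 to 119 CPM in buffer. Their part in the molting and cuticlin counts of the buffer worms was not tested.

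**Figure D3:**
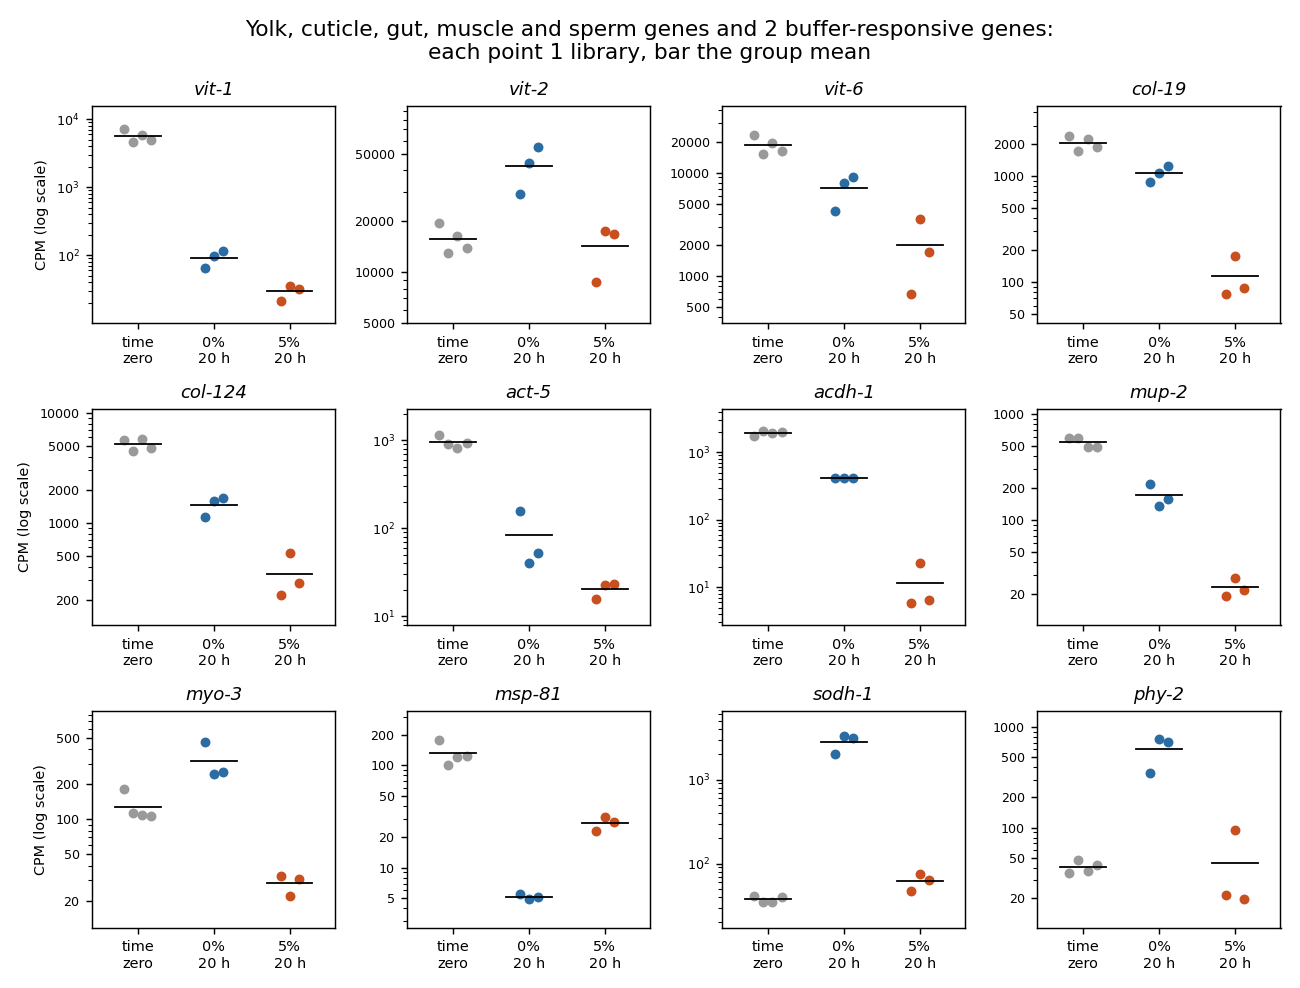
Levels in CPM (log scale) of 12 genes at time zero (4 libraries, grey), in 0% buffer at 20 h (3, blue) and in 5% ethanol at 20 h (3, orange), with 1 point a library and a bar at the group mean. The gut, collagen and muscle genes act-5, acdh-1, col-19, col-124, mup-2 and myo-3 are lowest in ethanol, msp-81 is lowest in buffer, and sodh-1, phy-2 and vit-2 are highest in buffer.

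Most muscle filament genes fell in ethanol. Of 27 tested, 0 were higher and 23 lower (median -1.62), and their summed level was 11926 to 15409.7 CPM at time zero, 4973 to 5447 CPM in ethanol and 12556 to 14419.9 CPM in buffer. In buffer 5 were higher and 8 lower. The troponin T gene mup-2 went from 585, 589, 485 and 484 CPM to 19.1, 28.3 and 21.6 CPM (-4.54 ± 0.21 (SE), adjusted p = 3.86e-13), with 217, 134 and 158 CPM in buffer. The troponin I gene tni-1 fell from 68.9, 99.8, 73.2 and 82.8 CPM to 5.81, 4.76 and 3.80 CPM (-4.08 ± 0.23 (SE), adjusted p = 1.18e-11) and was at 86.5, 72.4 and 73.6 CPM in buffer. Myosin heavy chain gene myo-3 was at 183, 113, 109.6 and 106 CPM at time zero, 32.3, 21.7 and 30.8 CPM in ethanol (-2.17 ± 0.32 (SE), adjusted p = 1.08e-05) and 462, 245 and 257 CPM in buffer. All ethanol libraries were lowest in these 3 genes, and myo-3 was highest in buffer. The body wall muscle markers summed to 1614 to 2893 CPM at time zero, 913 to 1307 CPM in ethanol and 4002 to 4831 CPM in buffer. Of these 4 markers 1 was higher, the muscle factor hlh-1 (0.79), and 2 were lower. The major myosin gene unc-54 did not pass (-0.66, adjusted p = 0.0672). The part of muscle content in these falls was not tested.

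Of 26 synapse genes 7 were higher and 8 lower in ethanol (26.9% and 30.8%, median -0.29), shares near the 26.5% and 26.6% of all tested genes, while buffer gave 15 higher and 0 lower. Without ethanol replicate 1 or 3 the higher count was 3, and without ethanol replicate 2 the lower count was 5. The potassium channel gene slo-1, whose protein is a known target of ethanol in worm neurons, was at 8.94, 7.25, 6.39 and 4.95 CPM at time zero and at 3.33, 2.30 and 3.63 CPM in ethanol. It was lower in all ethanol libraries (-1.14 ± 0.36 (SE), adjusted p = 0.0115), with an adjusted p of 0.056 (change -0.98) without ethanol replicate 2. In buffer slo-1 reached 33.5, 10.1 and 11.2 CPM. The release factor gene unc-31 rose (1.57), and the glutamate transporter gene eat-4 (-1.33) and the acetylcholine transporter gene unc-17 (-1.92) fell. FMRFamide-like peptide genes were higher in 14 of 30 cases and lower in 2 (median 0.41), led by flp-33 (1.39) with flp-25 lower (-1.59). The higher count was 9 without time zero replicate 1 and 8 without ethanol replicate 1 or 2, the lower count was 4 without ethanol replicate 2, and in buffer 27 were higher. Insulin-like peptides had 8 higher, among them ins-23 (3.49), and 8 lower, among them daf-28 (-2.71), of 28. Both shares were 28.6%, near those of all tested genes. The insulin pathway list had 3 higher and 4 lower of 16 (18.8% and 25%), no more than among all tested genes. The transcription factor gene daf-16 did not pass (-0.30, adjusted p = 0.476), dod-3 rose by 2.86, dod-17 fell by 5.97 and dod-24 fell by 3.72. The neuron markers summed to 141 to 168 CPM at time zero and 145 to 167 CPM in ethanol.

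Sperm genes fell in ethanol and fell further in buffer. All 29 tested major sperm protein genes, which drive sperm crawling, were lower (median -1.96), with a sum of 2018 to 3072 CPM at time zero and 614 to 653 CPM in ethanol, against 73 to 91.5 CPM in buffer (median -4.92). Ethanol against buffer gave 29 higher and 0 lower. The member msp-81 was at 178, 100.3, 121 and 125 CPM at time zero, 22.7, 31.1 and 27.7 CPM in ethanol (-2.27 ± 0.20 (SE), adjusted p = 8.08e-09) and 5.50, 4.95 and 5.11 CPM in buffer, 3 levels with no overlap. These genes are close copies and their reads may be shared. Of 48 other sperm genes 2 were higher and 38 lower (median -1.27), against 45 lower in buffer (median -4.55). The sperm phosphatase gene gsp-3 fell by 2.21 in ethanol and fell by 4.48 in buffer, and ssp-10 changed by -2.17 and -5.33. The 4 sperm markers summed to 87.2 to 162 CPM, 24.8 to 34.1 CPM in ethanol and 4.71 to 8.10 CPM in buffer, and their part in these falls was not tested. The count of higher genes was 1 without any 1 of the 7 libraries.

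Few oocyte genes were called. Oocyte and eggshell genes had 3 higher and 0 lower of 25, although their median was -0.32. With library sizes alone 5 were higher and the median was -0.04. Their summed level ran from 6435 to 15696 CPM among time zero libraries and from 7151 to 9897 CPM in ethanol. With so wide a spread, few calls do not show that levels stayed the same. The eggshell genes cpg-3 (0.77), egg-3 (0.57) and egg-2 (0.53) rose. The oocyte markers summed to 1513 to 4940.2 CPM at time zero and 1442 to 2569.8 CPM in ethanol. Meiosis genes had 8 higher and 2 lower of 28 (28.6% and 7.1%, median 0.21), and the higher share was near the 26.5% of all tested genes. Their higher count was 3 without ethanol replicate 1, and 4 without time zero replicate 1 or ethanol replicate 2. The lower count was 1 without ethanol replicate 2. With library sizes alone 13 meiosis genes were higher and 1 lower. The synaptonemal complex gene syp-3 rose by 1.00, and the germ granule helicase gene glh-1 was lower (-0.93), with an adjusted p of 0.0536 without ethanol replicate 2. DNA replication and cell cycle genes had 16 higher and 1 lower of 40 (median 0.15), against 1 and 1 in buffer. That higher count was 8 without time zero replicate 1, 7 without ethanol replicate 1 and 6 without ethanol replicate 2, and the lower count was 0 without time zero replicate 1 and 2 without time zero replicate 2. The single-strand binding protein gene rpa-2 rose from 157, 201, 187 and 184 CPM to 341, 366 and 303 CPM (0.89 ± 0.17 (SE), adjusted p = 0.000169), with 117, 203 and 189.6 CPM in buffer. The clamp loader gene rfc-4 (0.71) and the kinase gene cdk-2 (0.74) rose by similar amounts. Early zygotic genes had 9 higher and 1 lower of 36 in ethanol (median 0.21, or 0.10 with genes at 0 in a group set at their bound), and 28 higher and 2 lower in buffer (median 3.08). The higher share in ethanol, 25%, was near the 26.5% of all tested genes.

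Histone genes were higher in 22 of 29 tested cases and lower in 3 (median 1.11). In buffer alone 7 were higher and 6 lower than at time zero (median -0.08), and ethanol against buffer gave 20 higher and 2 lower (median 1.29). Most histone mRNAs lack a poly(A) tail, and in a polyA library their counts are low: his-64 was at 0.745, 1.34, 0.990 and 1.01 CPM at time zero and at 8.03, 4.83 and 5.41 CPM in ethanol (2.55 ± 0.43 (SE), adjusted p = 4.31e-05), and at 0.382, 2.19 and 2.19 CPM in buffer. The linker histone gene his-24 rose by 2.22 in ethanol and by 4.67 in buffer. Histone copies are nearly identical, so single genes are uncertain. Nuclear hormone receptors had 114 higher and 15 lower of 195 (median 0.77), and buffer gave a like count, 108 and 17 (median 0.77). Between the 20 h groups 45 receptors were higher in ethanol and 47 lower (median 0.10). The receptor gene nhr-178 rose from 0.372, 0.403, 0.270 and 0.542 CPM to 19.9, 12.6 and 15.7 CPM (5.29 ± 0.30 (SE), adjusted p = 1.04e-11) with 1.22, 0.424 and 0.649 CPM in buffer, and nhr-114 fell by 3.93.

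Genes of housekeeping complexes had medians near 0 under TMM scaling. Cytosolic ribosomal proteins had 2 higher and 22 lower of 80 (median -0.13). With library sizes alone the count was 10 higher and 13 lower (median 0.13), so no direction is given for them, and the lower count was 13 without ethanol replicate 1 and 14 without time zero replicate 1. The higher count was 1 without time zero replicate 1, 3 or 4 or ethanol replicate 1 or 2. Mitochondrial ribosomal proteins had 9 higher and 5 lower of 66 (median 0.08). The counts were 16 and 0 with library sizes alone (median 0.31) and 14 and 9 with the exon-length trend removed (median 0.02), so no direction is given for them either. Left-out libraries gave 3 higher without ethanol replicate 1 or 2, 4 higher without time zero replicate 1 or 3, and 3 lower without time zero replicate 1. The proteasome had 4 higher and 0 lower of 32 (median 0.04), and 13 higher with library sizes alone (median 0.30). It had 1 higher without ethanol replicate 2, 2 higher without ethanol replicate 1 and 1 lower without time zero replicate 2, and 11 lower in buffer. Cell death and DNA damage genes had 5 higher and 1 lower of 12, and the checkpoint gene hus-1 changed most (0.91). That higher count was 2 without ethanol replicate 1 and 3 without time zero replicate 3.

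**Figure D4:**
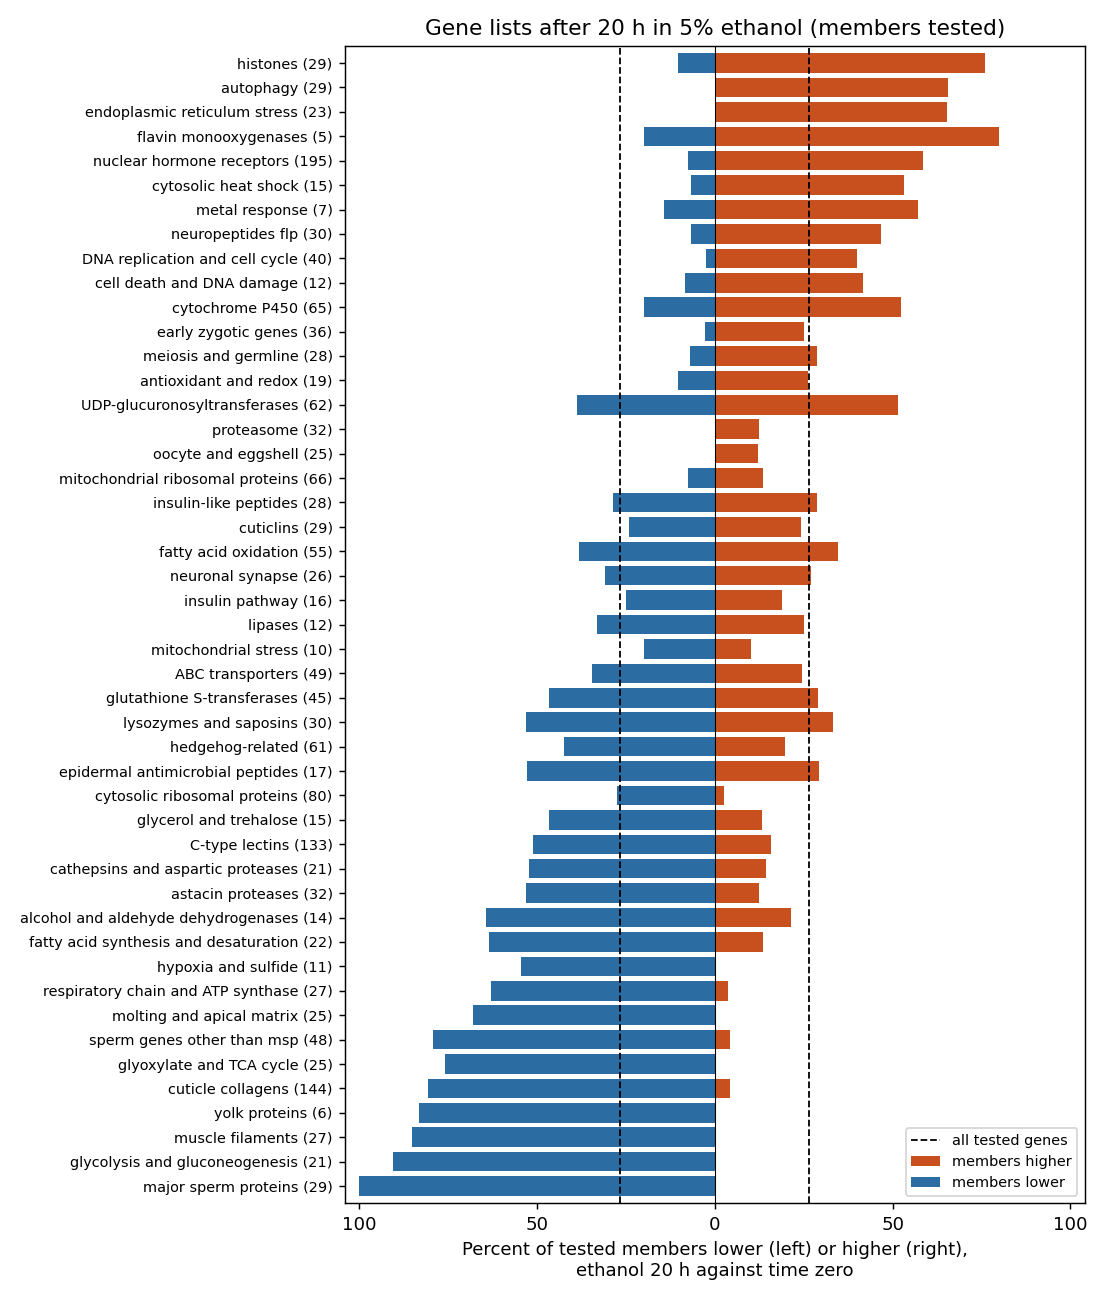
Percent of each list's tested members that were lower (blue, to the left) or higher (orange, to the right) in ethanol at 20 h against time zero, with the number tested in brackets and dashed lines at the share over all tested genes. Histones, autophagy and ER stress genes reach far right with few or no members lower, and major sperm proteins, glycolysis, muscle filaments, yolk proteins and collagens reach far left.

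**Figure D5:**
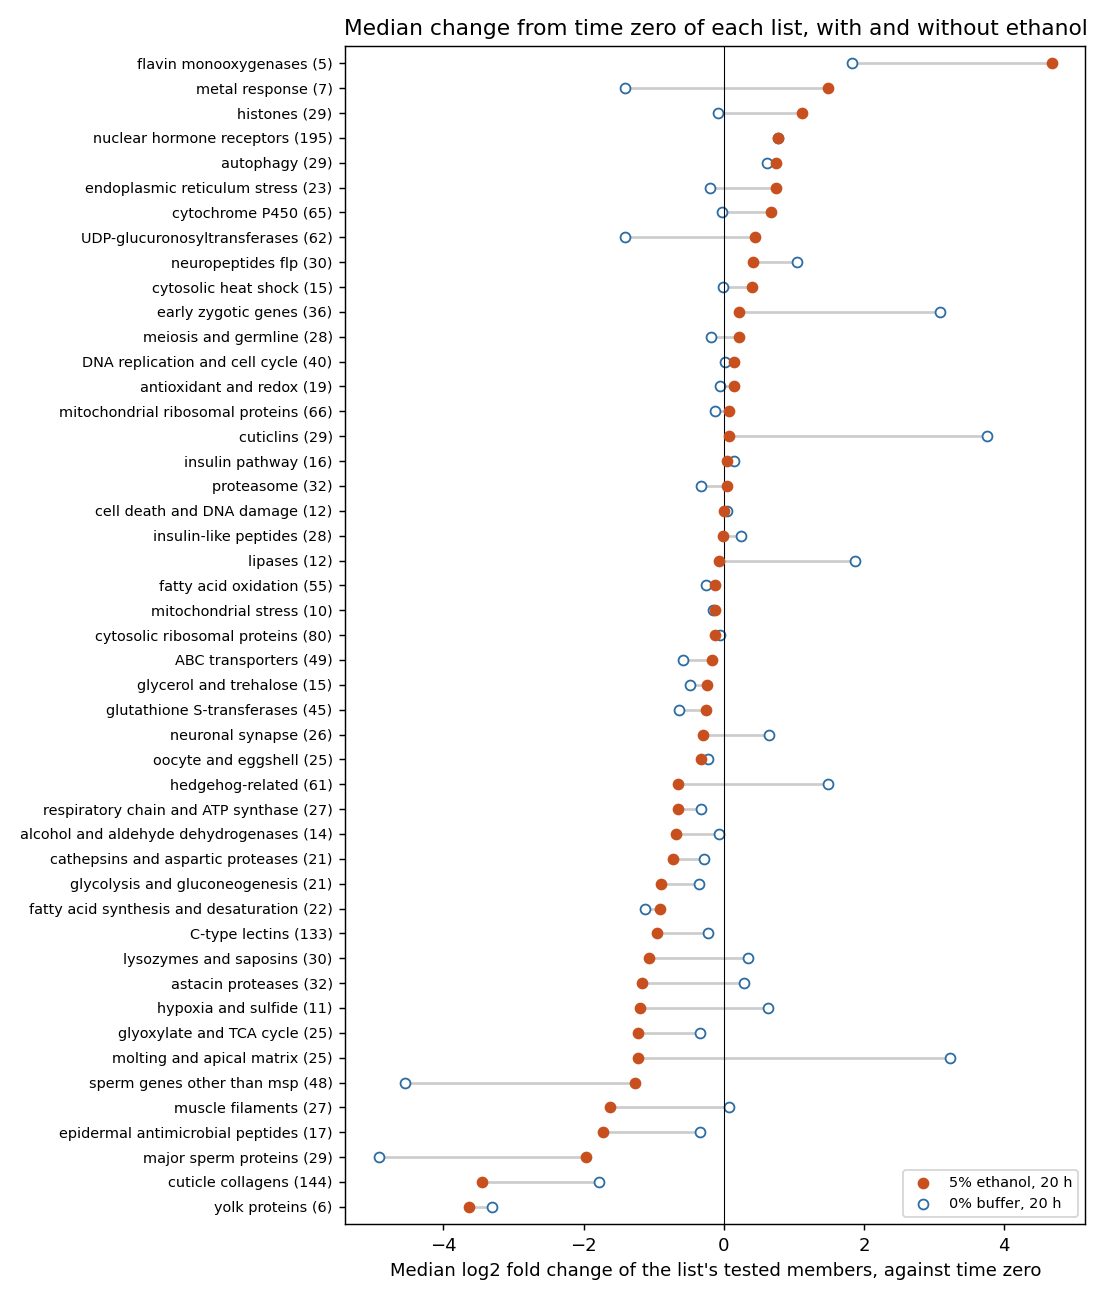
Median log2 fold change against time zero of each list's tested members, for ethanol at 20 h (filled orange) and buffer at 20 h (open blue). The 2 points share the time zero libraries. Molting, cuticlin, early zygotic and hedgehog-related lists sit far to the right in buffer alone, and the sperm lists sit further left in buffer.

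The earlier times of the series show when the leading changes appeared, as means ± SD of 3 libraries. The level of gba-2 was 183 ± 29.3 CPM after 1 h and 519 ± 45.7 CPM after 4 h of ethanol, above its 112 ± 7.37 CPM at 20 h. In oac-14 it climbed throughout, with 39 ± 2.39, 171 ± 29.1 and 1062 ± 434 CPM at 1, 4 and 20 h. The ER genes ckb-2 (912 ± 67.6 CPM) and hsp-4 (1640.2 ± 114 CPM) stood higher at 4 h than at 20 h (189 ± 31.6 and 803 ± 24 CPM). In contrast crt-1 and fat-2 were highest at 20 h: fat-2 was at 902 ± 106 CPM after 1 h, 1129.7 ± 60.4 CPM after 4 h and 3085 ± 199 CPM after 20 h. The gene gpdh-1 was at 25.2 ± 2.97 CPM after 1 h of ethanol, above 10.5 ± 0.761 CPM at time zero, and at 0.596 ± 0.0271 CPM by 4 h. The muscle gene mup-2 was still at 535 ± 69.1 CPM after 1 h, near its 536 ± 59.1 CPM at time zero (n = 4), and went to 245 ± 41.1 and 23 ± 4.74 CPM. No test was run between these times here. The 1 and 4 h levels are those of the ethanol groups, and buffer at those times is not set beside them. The part of buffer away from the seeded plates in these timings was not tested.

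By exon length, 2983 genes with exons of 2256 bases or more were higher in 14.2% and lower in 23.9% of cases, against 33% and 26% of 2989 genes of up to 758 bases. Across 14922 genes, which are not independent replicates, Spearman's rho of the change with exon length was -0.129. Chromosome X genes were higher in 28.8% of cases in ethanol and in 47% in buffer. Of 8 small nuclear RNA genes 7 were higher and none lower, and of 45 long intergenic RNAs 19 were higher and 5 lower, in libraries selected for poly(A). The part of RNA length and poly(A) selection in the list counts was not tested beyond a fit with the length trend removed.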

How the data were processed

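RNA was taken from whole worms, and libraries were made with a Kapa mRNA kit, which selects poly(A) RNA. The authors deposited raw read counts per gene for 22 libraries. The submitters' processing notes name Trimmomatic 0.39, fastp 0.23.2, STAR 2.7.9a, featureCounts of Subread 2.0.3 and the genome build ce10. For the strand setting, reads that match several places and the gene annotation, the choice was not given in the sources used here, so counts of near-identical, overlapping or antisense genes are uncertain. Coordinates are not given, since the annotation used for exon lengths and biotypes (Ensembl release 115) is of another build.

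Counts were tested with edgeR 4.0.16 in R 4.3.3. Genes passed filterByExpr with a minimum count of 10 and a minimum total of 15. All 22 libraries entered one fit with a mean per group and TMM scaling, and glmQLFTest p-values were adjusted by Benjamini and Hochberg over all tested genes, with a threshold of 0.05. Each SE was worked back from that test, as the absolute log2 fold change divided by the square root of its F statistic. A run of the fit on simulated counts changed far fewer genes than were called here. It therefore cannot test the scaling or the error rate under so wide a change. Alternatives were DESeq2 1.42.0, limma-voom (limma 3.58.1), other scalings and filters, a replicate block, a minimum fold, a removed exon-length trend and each library left out. Library totals are the depth behind every value.

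The gene lists and the members described were chosen with earlier results of these data known, and 47 lists and 9 marker lists are described by counts and medians with no set test. The text names part of a set of genes drawn by rule. That set holds the 12 largest rises and falls among called genes whose groups do not overlap. Those genes held at least 10 counts in each group and averaged 5 CPM or more. The set also holds the 5 most abundant called genes per 1000 exon bases in each direction and the 4 most changed members of each list. It takes in every member of lists of up to 12, and a set of stress and ethanol genes whatever their result. Genes of the set left out of the text include sodh-2, hlh-30 and spg-7. Other genes named were chosen after their values were seen.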

Additional observations from a re-analysis of the deposited data

Results flagged for a closer look

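Among 169 genes named above with unequal time zero levels, 13 had 1 time zero library whose gap to the nearest other library, divided by the range of the 4, passed Dixon's 95% limit. Chance gives such a gap in about 1 in 20 groups. The library was replicate 1 in 11 of the 13 and replicate 2 in the other 2. Replicate 1 was the highest for alh-1 (gap 0.880 of the range), elt-3 (0.889), myo-3 (0.901), sqst-1 (0.922), sucl-1 (0.865), sym-1 (0.866), ucr-2.2 (0.919), unc-17 (0.884) and unc-54 (0.892). It was the lowest for cdk-2 (0.983) and sod-4 (0.844). Replicate 2 was the highest for idh-1 (0.844) and ins-23 (0.873). For unc-54 replicate 1 stood at 1763 CPM, against 999.6 to 1082 CPM in the others. Replicate 1 is also 1 of the 3 libraries picked for a high positive score on the main axis within groups.

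The change from time zero to 20 h differed between 5% and 0% ethanol in 3833 genes that were higher with ethanol and 4309 that were lower, by the direct test of ethanol against buffer.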

How the results depend on the processing

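Asking for a change above 2-fold (glmTreat) left 1323 genes higher and 1848 lower in ethanol against time zero, 2408 and 2310 in buffer against time zero, and 1960 and 2304 in ethanol against buffer. This test asks more of each gene by construction. Every other setting run kept these 6 counts within 1.5 times. With a library left out, 3208 to 3962 genes were higher and 3611 to 3935 lower in ethanol against time zero, 4414 to 4931 and 3540 to 3998 in buffer against time zero, and 3379 to 4200 and 3797 to 4280 in ethanol against buffer. Of the 8119 calls, 82.5% to 98.1% were made in the same direction at the other settings, 39.1% with the minimum fold, and 0 in the opposite direction at any setting. DESeq2 called 8167 genes. With the exon-length trend removed 4517 genes were higher and 4191 lower. With only the groups compared in the fit 3680 were higher and 4297 lower. Correlations of the deviations of same-numbered libraries ran from -0.311 to 0.409. With no values for differently numbered libraries beside them, they cannot tell whether the labels' replicate numbers pair the samples. With a replicate block 3517 genes were higher and 3737 lower. With that block 2 of the 15 cytosolic heat shock genes were higher, and neither hsp-16.2 (2.08, adjusted p = 0.0823) nor hsp-70 (1.62, adjusted p = 0.167) passed. Of 170 named genes, 137 kept their call against time zero at all settings that gave a value, and 120 kept their call in ethanol against buffer at 20 h. Without ethanol replicate 2, 5 genes turned direction against time zero, and the cause was not tested. With a library left out, their log2 fold changes ran from -0.83 to 0.46 for egl-9, -0.99 to 0.50 for phy-2, -0.01 to 3.13 for hsp-16.2, -0.40 to 3.33 for hsp-16.41 and -0.70 to 2.7 for hsp-70, and from -2.51 to 0.98 for hsp-16.2 in ethanol against buffer. Of 1786 list counts at other settings, 1579 stayed within 1.5 times. Depth limits the genes with fewer than 10 counts in a group.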

Other observations

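Some gene families outside the lists also moved, and they were picked after their values were seen. Over all tested genes 26.5% were higher and 26.6% lower in ethanol against time zero. Of 79 tested fbxb genes, which encode F-box proteins, 4 were higher and 2 lower in ethanol against time zero, while in buffer 76 were higher and 0 lower (median 5.34). Ethanol against buffer gave 0 fbxb genes higher and 77 lower. The fbxa family of F-box genes had 57 higher and 15 lower of 113 in ethanol (median 0.71). Genes of the skr family, whose SKP1-like proteins join F-box proteins in ubiquitin ligases, were higher in 14 of 19 cases and lower in 0 (median 0.76). In buffer 14 skr genes were higher and 2 lower, with a larger median of 2.05. Ethanol against buffer gave 4 skr genes higher and 13 lower (median -1.04).

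Peroxisome assembly genes (prx) were higher in 8 of 11 cases and lower in 0 in ethanol, against 2 higher and 2 lower in buffer. Mediator subunit genes (mdt) were higher in 10 of 20 cases and RNA polymerase subunit genes (rpb) in 7 of 11, with 0 lower in both. Subunits of the vacuolar proton pump (vha) were lower in 16 of 19 cases and higher in 0 (median -1.06), and in buffer 17 were lower. Ligand-gated channel genes (lgc) had 1 higher and 12 lower of 35 in ethanol and 10 higher and 3 lower in buffer.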
